A study of Mus musculus with 18 samples.

Results

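The integrated stress response was followed through 10 genes: the transcription factor gene Atf4 and 9 genes known as its targets or partners, Ddit3, Trib3, Ppp1r15a, Asns, Psat1, Phgdh, Sesn2, Ddit4 and Gdf15. They were taken by symbol from the count matrix, which lists 55487 Ensembl gene IDs, and 11 of its entries matched. Ddit3 has a second entry (ENSMUSG00000116429) with 0 reads in every group, so 10 entries with reads are described. The cells were BV2, an immortalised mouse microglial line. The 4 groups given 10 µM oxyhemoglobin, the oxygen-carrying blood pigment, were nuclear and cytoplasmic RNA after 12 h and after 24 h. Nuclear and cytoplasmic RNA of untreated cells (0 h) made up the other 2 groups. Each of the 6 groups had 3 libraries, and the deposited value is their mean. No spread between libraries can be had from it, so every interval below covers counting error only and no difference has a replicate check. No untreated cells were kept for 12 or 24 h, so time in culture and oxyhemoglobin cannot be told apart. BV2 is a single cell line, and the labels' protocols describe a single dish per fractionation and a single replicate treated. Nothing says that the 3 libraries of a group came from separate cultures. In RNA of a whole culture, fewer cells with a transcript and less of it per cell cannot be told apart.

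The integrated stress response begins when a kinase (PERK, GCN2, PKR or HRI) phosphorylates the translation factor eIF2. Protein synthesis then slows in general, while Atf4 mRNA, which carries short upstream open reading frames, is translated more, so ATF4 protein can change when its mRNA does not. HRI, the product of Eif2ak1, is held inactive by heme, the iron compound that hemoglobin carries. ATF4 pairs with C/EBP and other basic leucine zipper (bZIP) proteins and turns on genes for amino acid synthesis and uptake, for tRNA charging, for restraint of growth signalling through mTORC1 and, in long stress, for cell death. Only RNA was measured here, not eIF2 phosphorylation or protein.

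Summed over 3 libraries, the nuclear groups held 14652566 to 16031875 counts and the cytoplasmic groups 16537318 to 22379595. Levels are given as normalised counts per 1e+06 counts (CPM), scaled within each fraction by trimmed mean of M-values (TMM). Ratios between fractions use a scaling of all 6 groups together. Being called higher or lower took a ratio of 2-fold or more with a 95% counting interval that left out 0 on the log2 scale. At 0 h 4 nuclear marker RNAs had nuclear over cytoplasmic log2 ratios of 2.72 to 4.15. Of 4 cytoplasmic markers Actb (-3.79), Eef1a1 (-4.47) and Rplp0 (-3.56) lay the other way, but Gapdh was at 1.54, on the nuclear side. Of the 50-base stretches of Gapdh 25.1% also occur in other annotated genes. The sum of 15 microglial and macrophage markers lay between 533 and 1199 CPM per total counts, with 8 to 13 of them at 1 CPM or more. P2ry12 and C1qa, defining markers of resting microglia, were at or near 0 in every group. Of 4 markers each, neuronal and astrocytic sums stayed under 1 CPM and endothelial sums reached 6.74, oligodendrocyte sums 13.4 and erythroid sums 13.4 CPM. Fibroblast markers summed to 5.14 CPM in the cytoplasm at 12 h and to at most 0.437 CPM in the other groups. That same group held a mean count of 123 for cardiac actin (Actc1), against 0.333 at 24 h and 0 in the other 4 groups. The part of these transcripts in the results for the cytoplasm at 12 h was not tested.

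Promoter sequences show where the letters of 2 ATF-type elements stand in these genes. Of the 10 genes, 2 held the C/EBP-ATF response element TGATGNAA, bound by ATF4 with a C/EBP partner, between 250 bases before and 50 bases after an annotated start, and 1 held the cAMP response element TGACGTCA. Both strands were searched in RefSeq promoters of GRCm38.p6. Over all 32851 promoters of that length, 3.97% held the first element and 1.79% the second. The 3 stretches below run 5′ to 3′ on the strand of the gene, and capitals mark the element. Positions of elements count from the RefSeq start, whereas the gene spans given further on are those of GENCODE M21. The starts differ for Trib3, whose element lies outside the GENCODE span, and for Asns, whose element lies within it.
Trib3: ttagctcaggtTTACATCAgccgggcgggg
Asns: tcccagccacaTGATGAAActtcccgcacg
Ppp1r15a: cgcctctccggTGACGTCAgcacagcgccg
The Trib3 stretch lies at chr2:152344028-152344057 (minus strand), with the element on the opposite strand of the gene from base 15 after the start. That of Asns lies at chr6:7693214-7693243 (minus strand), with the element beginning 23 bases before the start. In the human gene the corresponding element is known as a nutrient-sensing response element. The Ppp1r15a stretch lies at chr7:45526262-45526291 (minus strand), beginning its element 12 bases before the start. A match of letters is a description and not evidence of binding.

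Few of the 10 genes passed 2-fold with oxyhemoglobin. In the nucleus Gdf15 alone was higher at 12 h, 1 of 10 genes compared, and 7.92% of 17295 genes were higher. Gdf15 entered these comparisons only through the treated nuclear groups, where it is high, so its call describes it and supports nothing further. Gdf15 was again the only one at 24 h, when 7.88% of all genes were higher. No member was called lower in the nucleus, where 6.64% of genes were at 12 h and 5.75% at 24 h. In the cytoplasm Ddit3 alone was higher at 12 h, 1 of 9 compared, beside 11.7% of 11751 genes higher and 8.99% lower. At 24 h no member was called in the cytoplasm, while 17.1% of 11748 genes were called in either direction, 10.4% higher and 6.72% lower. Between the 2 treated times 0 of 10 members were called in the nucleus, beside 3.02% of all genes (1.83% higher and 1.19% lower). In the cytoplasm 0 of 9 were, beside 4.79% (2.9% higher and 1.89% lower). Both counts, 1 in 10 and 1 in 9, are near the background shares of higher genes at 12 and 24 h.

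The medians of the group were small. In the nucleus the median log2 ratio of the 10 genes was 0.15 at 12 h and 0.06 at 24 h against 0 h, beside 0.00 and -0.02 for all genes. In the cytoplasm the median of 9 genes was -0.11 at 12 h and -0.31 at 24 h, beside -0.04 and -0.06 for all genes. From 12 to 24 h in the cytoplasm all 9 ratios were below 0 with a median of -0.35 (all genes, -0.04), and 8 of the 9 intervals lay below 0. This common sign did not hold in the deposited TPM. Cytoplasmic TPM was higher at 24 h than at 12 h for Phgdh (591 and 559) and Sesn2 (106 and 100.5). The same was so for Psat1 (19.3 and 19.2) and Ppp1r15a (0.629 and 0.558), while Atf4, Ddit3, Trib3, Asns and Ddit4 were lower. On total counts or on log2(TPM + 1) the zero line itself moved: the median of all genes shifted by -0.22 and -0.23 for the nucleus at 12 h, and by -0.30 and -0.45 at 24 h. On log2(TPM + 1) the shift was -0.47 for the cytoplasm at 12 h and -0.35 at 24 h. For 24 h against 12 h in the cytoplasm it was 0.11 on total counts and 0.14 on log2(TPM + 1). The share of called genes that were higher, 54.4% and 57.8% in the nucleus at 12 and 24 h, was then 31.9% and 27.5% on total counts and 31.7% and 12.8% on TPM. In the cytoplasm 56.5% and 60.7% became 15.5% and 21.6% on TPM. Signs of small ratios below depend on that line.

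**Figure D1:**
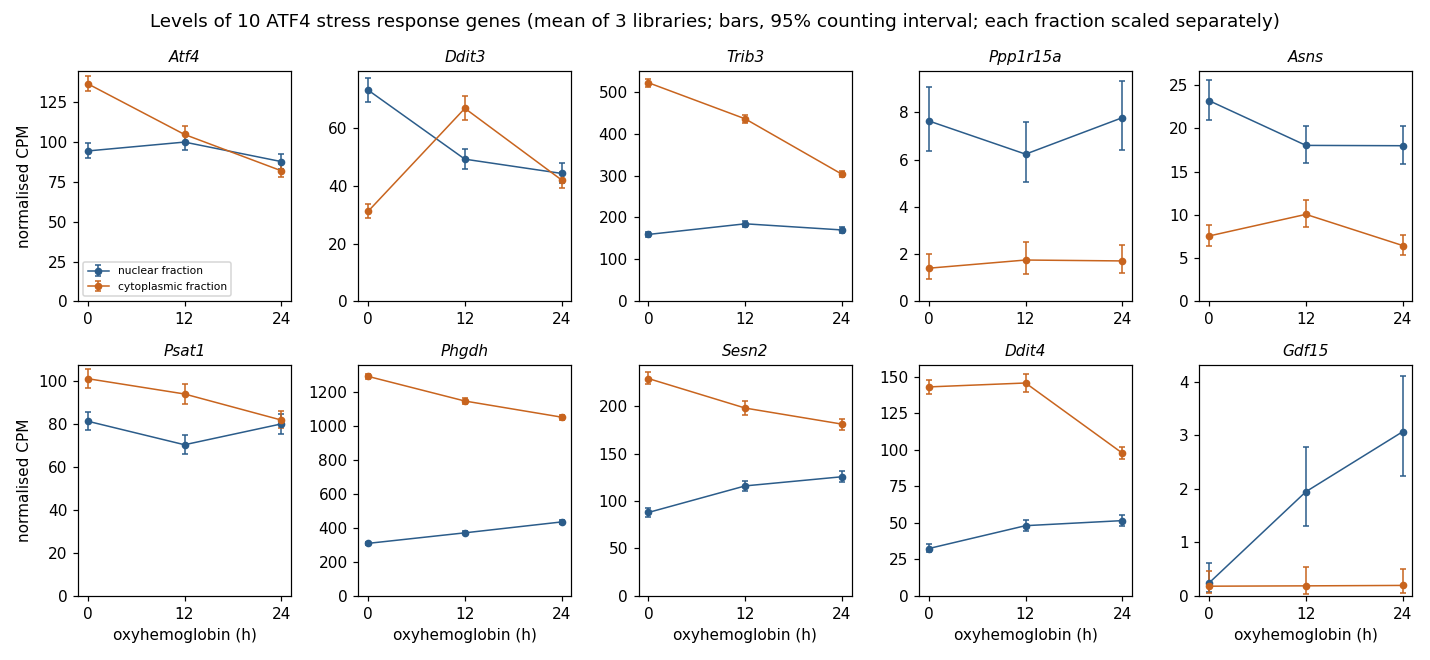
Normalised CPM of each gene (vertical axes, from 0) in the nuclear and the cytoplasmic fraction at 0, 12 and 24 h of oxyhemoglobin (horizontal axes); points are means of 3 libraries and bars are 95% counting intervals. Heights compare within a fraction only, since the fractions were scaled separately. Nuclear Gdf15 reaches 3.07 CPM at 24 h, nuclear Ddit3 is highest at 0 h, and cytoplasmic Ddit3 is highest at 12 h with 66.7 CPM.

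Atf4 (ENSMUSG00000042406, GRCm38 chromosome 15, 80255184 to 80257541, plus strand) encodes the effector of the pathway. Its nuclear level was 94.3 CPM at 0 h, 99.9 at 12 h and 87.6 at 24 h. Its cytoplasmic level was 136 CPM at 0 h, 105 at 12 h and 81.9 at 24 h. On this scale the nuclear values lay close together, and the cytoplasmic ones were lower at each later time. In the nucleus the log2 ratio to 0 h was 0.08 at 12 h (95% counting interval -0.02 to 0.19) and -0.11 at 24 h (-0.21 to 0.00), so neither could be told from 0 by counting error. The 12 h value was -0.13 on total counts and -0.22 on TPM, and the 24 h value was -0.41 and -0.70, so its nuclear sign at 12 h and the size at 24 h depend on the scaling. In the cytoplasm it was -0.38 at 12 h (-0.47 to -0.30) and -0.74 at 24 h (-0.82 to -0.65), under 2-fold, and 12.5% of genes had a lower ratio at 24 h. On log2(TPM + 1) these 2 values were -1.10 and -1.25, both past 2-fold. Of the exonic bases of Atf4, 26.8% occur only in transcripts annotated with a retained intron.

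Ddit3 (ENSMUSG00000025408, chromosome 10, 127290774 to 127296288, plus strand) encodes CHOP, a bZIP factor that ATF4 induces and that promotes cell death in long stress. In the nucleus it stood at 73.1 CPM at 0 h, 49.2 at 12 h and 44.2 at 24 h. In the cytoplasm it stood at 31.1 CPM at 0 h, 66.7 at 12 h and 41.9 at 24 h. The nuclear level was thus highest in untreated cells, while the cytoplasmic level peaked at 12 h. Cytoplasmic Ddit3 rose 2.15-fold at 12 h (log2 ratio 1.10, 0.96 to 1.24), above 89.6% of the genes compared. At 24 h its cytoplasmic ratio to 0 h was 0.43 (0.28 to 0.58), and to 12 h it was -0.67 (-0.80 to -0.54). In the nucleus the ratio was -0.57 at 12 h (-0.70 to -0.44) and -0.72 at 24 h (-0.86 to -0.58), under 2-fold, with 16.8% and 11.2% of genes lower.

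The ratios of Ddit3 depended on the scaling. On log2(TPM + 1) the cytoplasmic ratio of Ddit3 was 0.35 at 12 h, under 2-fold, and -0.10 at 24 h. The nuclear ratio at 24 h passed 2-fold on total counts (-1.02) and on TPM (-1.31). A nuclear ratio below 0 with a cytoplasmic ratio above 0, both intervals excluding 0, was seen in 281 of 11085 genes compared in both fractions at 12 h (2.53%) and in 343 at 24 h (3.09%), and Ddit3 was among them at both times. The reverse held for 10.7% and 12.5% of genes. Of the 1713 exonic bases of Ddit3, 48.0% occur only in transcripts with a retained intron, so spliced and unspliced RNA both count towards it. Counted over all its exonic bases, 10.9% overlap Mars, Gm4189 or the second Ddit3 entry, and these 2 shares may hold bases in common. The strand setting is not given in the sources used here, so the level of Ddit3 is uncertain to the extent of that overlap.

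**Figure D2:**
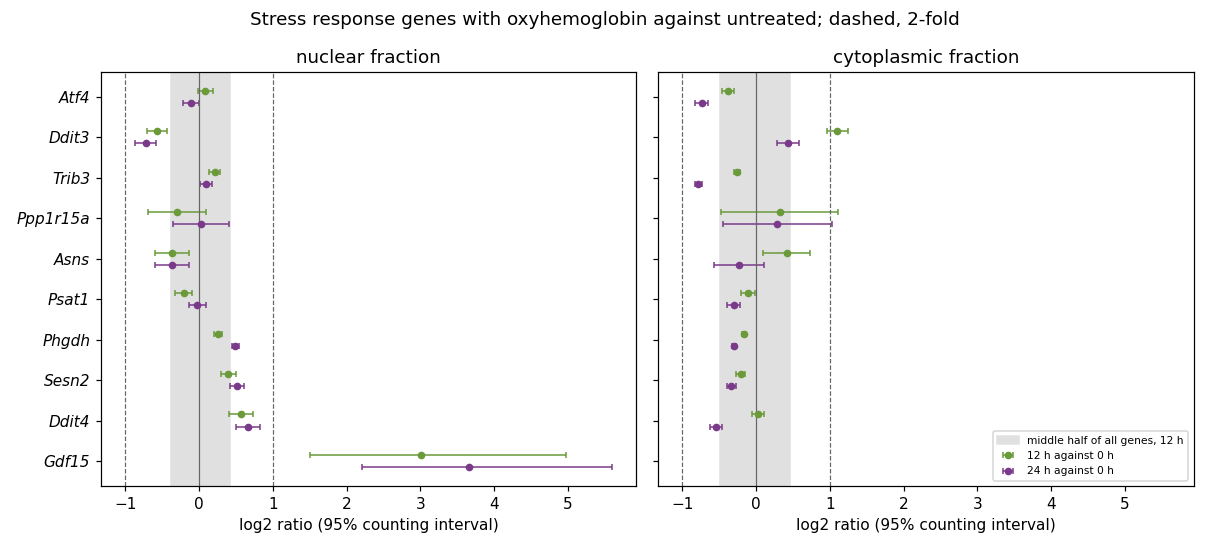
Log2 ratio (horizontal axes) of each gene at 12 h and at 24 h of oxyhemoglobin against 0 h, in the nucleus (left) and in the cytoplasm (right); bars are 95% counting intervals, dashed lines mark 2-fold and the grey band holds the middle 50% of all genes at 12 h. Gdf15 in the nucleus and Ddit3 in the cytoplasm at 12 h lie past the dashed lines, and Gdf15 was not compared in the cytoplasm.

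Trib3 and Ppp1r15a carry feedback of the response. Trib3 (chromosome 2, 152337422 to 152344032, minus strand) encodes a pseudokinase that binds ATF4 and CHOP and restrains them. Its nuclear level was 159.5 CPM at 0 h, 185 at 12 h and 170.2 at 24 h, and its cytoplasmic level was 521, 435 and 303 CPM at the same times. Cytoplasmic Trib3 was thus lowest at 24 h, with a log2 ratio to 0 h of -0.26 at 12 h (-0.30 to -0.22) and -0.78 at 24 h (-0.83 to -0.74), under 2-fold. At 24 h 11.2% of genes had a lower ratio, and on log2(TPM + 1) it was -1.31, past 2-fold. In the nucleus its ratio was 0.21 at 12 h (0.14 to 0.29) and 0.09 at 24 h (0.01 to 0.17). These nuclear signs turned to -0.00 and -0.21 on total counts and to -0.09 and -0.52 on TPM.

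Ppp1r15a (chromosome 7, 45522916 to 45526268, minus strand) encodes GADD34, which brings protein phosphatase 1 to eIF2 and so ends the response. It was scarce, with 126, 96 and 114 summed reads in the nucleus at 0, 12 and 24 h and 31, 28 and 35 in the cytoplasm. That is 7.63, 6.23 and 7.77 CPM in the nucleus and 1.40, 1.75 and 1.71 CPM in the cytoplasm. All 4 ratios to 0 h, between -0.29 and 0.32, had intervals that included 0. In the cytoplasm at 12 h the interval ran from -0.47 to 1.10, which leaves out a 2-fold lower level and does not leave out a 2-fold higher one.

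The 3 enzymes of amino acid synthesis differed from each other in level and in direction. Asns (chromosome 6, 7675169 to 7693254, minus strand) encodes asparagine synthetase. It stood at 23.2, 18.03 and 17.99 CPM in the nucleus at 0, 12 and 24 h and at 7.56, 10.1 and 6.45 CPM in the cytoplasm. Its nuclear ratio was -0.36 at 12 h (-0.59 to -0.14) and -0.37 at 24 h (-0.60 to -0.14). Its cytoplasmic ratio was 0.41 at 12 h (0.09 to 0.73) and -0.23 at 24 h (-0.57 to 0.11), and the 12 h value was -0.24 on TPM. Like Ddit3, it was thus below its untreated level in the nucleus and above it in the cytoplasm at 12 h, both under 2-fold.

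Psat1 (chromosome 19, 15904678 to 15947337, minus strand) and Phgdh (chromosome 3, 98313170 to 98339990, minus strand) encode enzymes of serine synthesis from a glycolytic intermediate, with Phgdh catalysing the step that starts it. Psat1 stood at 81.4, 70.4 and 80.1 CPM in the nucleus at 0, 12 and 24 h and at 101, 94.1 and 81.9 CPM in the cytoplasm. Its ratios to 0 h lay between -0.31 and -0.02, the lowest in the cytoplasm at 24 h (-0.40 to -0.21). For Phgdh the nuclear level was 309.8 CPM at 0 h, 372 at 12 h and 436 at 24 h, and the cytoplasmic level was 1295, 1149 and 1054 CPM. Its later values were thus the higher ones in the nucleus and the lower ones in the cytoplasm, by steps under 2-fold. Its nuclear ratio was 0.26 at 12 h (0.21 to 0.32) and 0.49 at 24 h (0.44 to 0.55), and these turned to -0.04 and -0.12 on TPM. Its cytoplasmic ratio was -0.17 at 12 h and -0.30 at 24 h. Of the 50-base stretches of Phgdh transcripts, 47.8% also occur in 23 other annotated genes, so its values are uncertain.

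Sesn2 and Ddit4 encode sestrin 2 and REDD1, which hold back mTORC1 when amino acids are short or cells are stressed. Sesn2 (chromosome 4, 132492032 to 132510501, minus strand) stood at 87.95, 116 and 126 CPM in the nucleus at 0, 12 and 24 h and at 229, 198 and 181 CPM in the cytoplasm. Ddit4 (chromosome 10, 59949669 to 59951834, minus strand) stood at 32.4, 48.1 and 51.5 CPM in the nucleus and at 143, 146 and 97.7 CPM in the cytoplasm. Both were above their untreated level in the nucleus at both times and below it in the cytoplasm at 24 h. The nuclear ratio of Ddit4 was 0.57 at 12 h (0.41 to 0.73) and 0.67 at 24 h (0.51 to 0.83), and 84.7% of genes had a lower ratio at 24 h. That of Sesn2 was 0.40 at 12 h (0.30 to 0.50) and 0.51 at 24 h (0.41 to 0.61), and the 24 h value was -0.10 on TPM. None of these passed 2-fold. In the cytoplasm the 24 h ratio was -0.55 for Ddit4 (-0.63 to -0.47) and -0.34 for Sesn2 (-0.40 to -0.28), and that of Ddit4 was -1.08 on TPM, past 2-fold. At 12 h in the cytoplasm Ddit4 was at 0.03 (-0.05 to 0.10).

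Gdf15 (chromosome 8, 70629393 to 70632456, minus strand) encodes a secreted cytokine of the TGF-beta superfamily that stressed cells release. It had the fewest reads of the 10 genes. Over 3 nuclear libraries it had 4 reads at 0 h, 30 at 12 h and 45 at 24 h, which is 0.242, 1.95 and 3.07 CPM. In the cytoplasm it had 4, 3 and 4 reads at those times and was too low to compare. Nuclear Gdf15 was 8.03-fold higher at 12 h (log2 ratio 3.01, 1.501 to 4.97) and 12.7-fold higher at 24 h (3.66, 2.21 to 5.60) than at 0 h. It passed the filter on low counts only through these 2 treated groups, with mean counts of 10 and 15 a library against 1.33 at 0 h, so a higher ratio was a condition of its being compared. The ratio of 24 h to 12 h was 0.66, with an interval that included 0 (-0.04 to 1.37). On log2(TPM + 1) the 12 h ratio was 0.89, since adding 1 outweighs a level of this size. Its cytoplasmic level of 0.181 to 0.196 CPM did not follow the nuclear one, at a depth where 3 reads correspond to 0.136 to 0.187 CPM.

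Levels per kilobase of exonic sequence, on the scaling of all 6 groups, allow the genes to be ranked against each other. Phgdh and Trib3 ranked first and second in all 6 groups, with 814 and 383 CPM per kilobase in the cytoplasm at 0 h and 83.4 and 50.3 in the nucleus. In the untreated cytoplasm Ddit4 (127), Sesn2 (103), Atf4 (90.5), Psat1 (37.2) and Ddit3 (28.4) followed, then Asns at 4.32, Ppp1r15a at 0.747 and Gdf15 at 0.153. In the untreated nucleus Ddit3 (28.6) and Atf4 (26.8) came next after Trib3, ahead of Sesn2 at 16.9. The length used counts bases found only in transcripts with a retained intron, 48.0% for Ddit3, 26.8% for Atf4 and 0 for Sesn2. By deposited TPM Sesn2 (56.4) was instead ahead of Atf4 (47.8) in the untreated nucleus, behind Ddit3 (66.3). The place of Ddit3 varied between groups. It was ahead of Psat1 in the cytoplasm at 12 h, with 55.7 against 31.6 CPM per kilobase. By TPM it was ahead of Psat1 in the untreated cytoplasm too (37.2 and 34.5). In the nucleus at 24 h Ddit3 was behind Atf4, Sesn2 and Ddit4. Neighbours such as Psat1 (12.8) and Ddit4 (12.4) in the untreated nucleus, or Atf4 (24.9) and Sesn2 (24.2) there at 24 h, lie too close to rank without a spread between libraries.

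Most of these RNAs were richer in the cytoplasm. Of 10 genes, 1 was called higher and 6 lower in the nucleus than in the cytoplasm at 0 h, where 47.5% of 17892 genes were higher and 32.7% lower. The median log2 ratio, nuclear over cytoplasmic, was -1.65 for the 10 genes and 0.78 for all genes. Ddit4 (-3.36), Phgdh (-3.29), Trib3 (-2.93) and Sesn2 (-2.60) were the most cytoplasmic, followed by Atf4 (-1.76) and Psat1 (-1.54). Ddit3 was at 0.01 (-0.13 to 0.15), evenly split on this scale, and Asns at 0.39 (0.13 to 0.67). Ppp1r15a was called higher in the nucleus (1.22, 0.64 to 1.84), but was at 0.96 with median-of-ratios scaling. Without TMM, on total counts, the median of all genes rose by 1.41, and Atf4 was at -0.34, Psat1 at -0.12 and Ddit3 at 1.42. The share of called genes that were higher in the nucleus, 59.2% with TMM, was 78.9% on total counts.

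With oxyhemoglobin the split between fractions was different for Ddit3. At 12 h 1 member was called higher in the nucleus and 7 lower, beside 75.7% of 17901 genes in either direction (46.4% higher and 29.3% lower). At 24 h 2 were higher and 7 lower, beside 74.7% (45.8% and 28.9%). Ddit3 was cytoplasmic here, with nuclear over cytoplasmic log2 ratios of -1.54 at 12 h (-1.67 to -1.40) and -1.07 at 24 h (-1.22 to -0.93). Gdf15 was called nuclear, at 2.28 (0.60 to 4.64) and 2.82 (1.37 to 4.76). It entered these comparisons only through the treated nuclear groups, where it is high, so these 2 calls describe it and support nothing further. Ppp1r15a was the other gene called nuclear at 24 h (1.03, 0.47 to 1.62), but was at 0.76 with median-of-ratios scaling. At 12 and 24 h the calls of Atf4, Ddit3, Psat1 and Sesn2 were lost on total counts and on TPM, as was that of Gdf15 at 12 h on TPM (0.98). The share of called genes that were higher was 61.3% at both times with TMM, 80.3% and 78.9% on total counts, and 78.7% and 69.2% on TPM.

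Of the 10 genes, the change of the nuclear to cytoplasmic ratio against 0 h was lowest for Ddit3. Its ratio fell by 1.54 on the log2 scale at 12 h (interval -1.73 to -1.35) and by 1.08 at 24 h (-1.28 to -0.88), while 5.49% and 11.9% of genes had a lower value. It was the 1 of 10 members called lower at each time, beside 6.1% of 16544 genes at 12 h and 7.68% of 16813 at 24 h. That count is near the background. The change comes from the same reads as the ratios of Ddit3 within each fraction, so it restates them and is no separate result. Ddit3 stayed called with median-of-ratios, total-count and TPM scaling, at -1.22 to -1.86 for 12 h and -1.10 to -1.54 for 24 h. For Gdf15 the change was 3.08 at 12 h (0.45 to 5.72) and 3.62 at 24 h (1.14 to 6.11), past the call at both times. With 4, 3 and 4 cytoplasmic reads it restates the nuclear ratio and is no separate result. Ddit4 was called higher at 24 h, 1.29 (1.11 to 1.47), or 0.83 and under 2-fold on total counts. Called higher were 10.8% of all genes at 12 h and 8.8% at 24 h.

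Under 2-fold, Trib3 (0.60 at 12 h and 0.95 at 24 h), Sesn2 (0.74 and 0.93), Phgdh (0.56 and 0.86) and Atf4 (0.59 and 0.70) were all above 0. The median change over all genes was 0.30 at 12 h and 0.19 at 24 h, against 0.58 and 0.78 for the 10 genes. Asns was at -0.65 (-1.03 to -0.26) at 12 h and -0.07 (-0.47 to 0.33) at 24 h. Ppp1r15a was at -0.48 and -0.19, with intervals that included 0, and Psat1 at 0.03 and 0.36. On total counts the median of all genes moved by -0.32 at 12 h and -0.46 at 24 h, and 29.3% and 10.1% of called genes were higher in place of 63.9% and 53.4%. On TPM it was 80.2% and 26.6%.

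**Figure D3:**
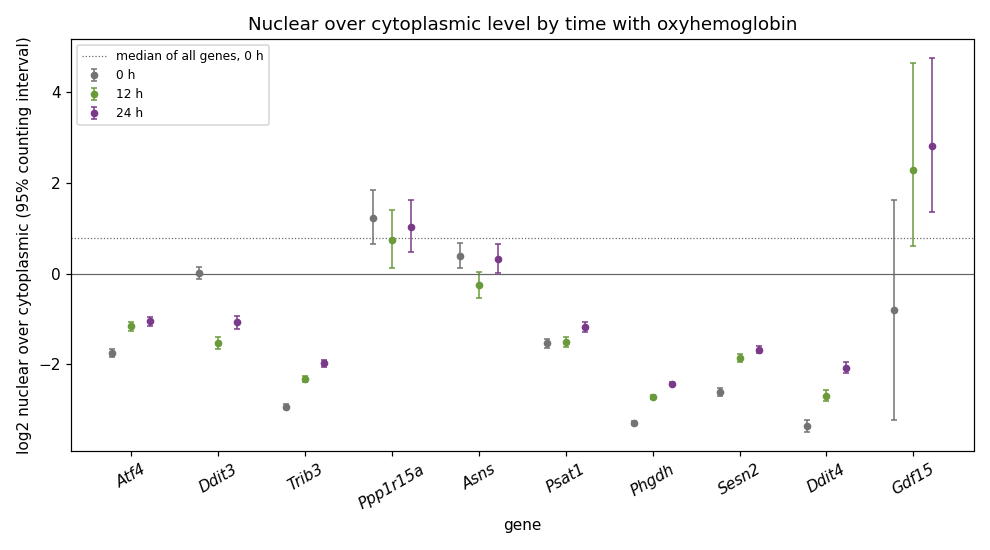
Nuclear over cytoplasmic log2 ratio (vertical axis, all 6 groups scaled together) of each gene at 0, 12 and 24 h of oxyhemoglobin; bars are 95% counting intervals and the dotted line marks the median of all genes at 0 h, 0.78. Ddit3 lies at 0.01 at 0 h and below 0 at 12 and 24 h, whereas Ddit4, Phgdh, Trib3, Sesn2 and Atf4 lie below 0 at 0 h and nearer to it at 12 and 24 h.

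The wider pathway was read from 114 further genes in 7 lists by role, of which 111 were found. In the nucleus 9 of 97 compared genes were higher and 2 lower at 12 h, and 10 were higher and none lower at 24 h. The nuclear shares over all genes came to 7.92% higher and 6.64% lower at 12 h, and 7.88% higher and 5.75% lower at 24 h. In the cytoplasm 10 of 92 were higher and 8 lower at 12 h, and 10 higher and 7 lower at 24 h. All genes gave 11.7% higher and 8.99% lower at 12 h, and 10.4% and 6.72% at 24 h, so the counts of higher genes in both fractions and of lower genes in the cytoplasm are near the background. Their median log2 ratio was 0.18 and 0.15 in the nucleus and 0.01 and -0.19 in the cytoplasm at 12 and 24 h, beside 0.00, -0.02, -0.04 and -0.06 for all genes. Median-of-ratios scaling lost none of these calls, and no called gene turned its sign with any scaling. Total counts lost 4 and 6 of the nuclear calls and 1 and 2 of the cytoplasmic ones at 12 and 24 h, and log2(TPM + 1) lost 8, 8, 10 and 12.

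The list of ATF4 partners and related bZIP factors held the most higher genes of any list with TMM scaling. The lists were chosen with earlier results of these data known, so this place describes the list and supports nothing further. Of its genes 5 of 14 were higher in the nucleus at each time, with none lower. In the cytoplasm 5 of 15 were higher at 12 h and 6 at 24 h, with 1 lower. Of all genes 7.92% and 7.88% were higher in the nucleus and 11.7% and 10.4% in the cytoplasm. These counts depend on the scaling. On total counts 4 and 3 were higher in the nucleus at 12 and 24 h, and 5 and 6 in the cytoplasm. On TPM 2 and 1 were higher in the nucleus and 1 and 0 in the cytoplasm, where 2 were lower at each time. The median of the list was 0.43 and 0.50 in the nucleus and 0.50 and 0.39 in the cytoplasm. On TPM it was 0.09 and -0.05 in the nucleus and -0.23 and -0.07 in the cytoplasm. Cebpb, a C/EBP factor of inflammatory gene control that can pair with ATF4, stood at 23.3, 67.9 and 104 CPM in the nucleus at 0, 12 and 24 h and at 122, 410.4 and 326 CPM in the cytoplasm. It was thus higher in both fractions at both times, with log2 ratios between 1.42 and 2.16. Cebpd was at 1.44 and 1.47 in the nucleus and at 1.68 and 1.29 in the cytoplasm. Atf3, a repressor that ATF4 induces, was at 1.33 and 1.21 in the nucleus and at 1.95 and 1.05 in the cytoplasm, with at most 4.56 CPM. Atf5, translated under stress like Atf4, was called against 0 h only in the cytoplasm at 24 h (1.82), its other ratios being 0.50 to 0.81. It had only 15, 19 and 49 summed cytoplasmic reads at 0, 12 and 24 h. Cytoplasmic Atf5 was also called higher at 24 h against 12 h (1.01, 0.22 to 1.86). That was 1 of 92 list genes, beside 2.9% of all genes. A difference of Atf5 between fractions was not tested across libraries. Outside the naming rule and named after their values were seen, Junb was the other gene higher in all 4 comparisons (1.04 to 1.57). Jund was higher in the nucleus (1.22 and 1.39, uncertain because 48.3% of its 50-base stretches occur in Gm11175) and Jdp2 in the cytoplasm (1.27 and 1.24). Nupr1, a stress-induced chromatin protein gene, was the one lower gene (-1.56 and -1.30). Of the 50-base stretches of Cebpb 18.1% also occur in Tmem189, and of those of Cebpd 13.7% in Spidr.

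Upstream of Atf4 stand the eIF2 kinases, eIF2 itself and its phosphatases. Of 14 sensors and eIF2 subunit genes compared, 2 were higher in the nucleus at each time and none was called in the cytoplasm, where all genes gave 20.6% and 17.1% called, against 7.92% and 7.88% higher in the nucleus. The list had medians of 0.41 and 0.19 in the nucleus and 0.19 and -0.07 in the cytoplasm. The genes called were Eif2s3x, the gamma subunit of eIF2 (1.18 and 1.03, uncertain because 34.6% of its 50-base stretches occur in other genes), and Eif2b1, a subunit of its exchange factor (1.14 and 1.02). Both genes fell under 2-fold at both times on total counts (0.97 and 0.73 for Eif2s3x, 0.92 and 0.72 for Eif2b1). On TPM they did so too (0.86 and 0.41, and 0.77 and 0.37). Among the 4 kinases none passed 2-fold. Eif2ak1, which encodes the heme-regulated kinase HRI, stood at 34.2, 60.8 and 60.3 CPM in the nucleus at 0, 12 and 24 h and at 102, 112 and 109.9 CPM in the cytoplasm (log2 ratios 0.83, 0.82, 0.13 and 0.11). Eif2ak2 (PKR) was at 0.89 in the nucleus at 12 h, Eif2ak3 (PERK) at -0.60 in the cytoplasm at 24 h, and Eif2ak4 (GCN2) at 0.50 and 0.51 in the cytoplasm. Of 7 feedback and phosphatase genes, only Ppp1cc, a catalytic subunit of protein phosphatase 1, was called, in the cytoplasm at 24 h (1.14, uncertain because 40.0% of its stretches recur elsewhere). The medians of that list were 0.25 and 0.24 in the nucleus and -0.29 and -0.38 in the cytoplasm. Ppp1r15b, the constitutive counterpart of Ppp1r15a, was at 0.53 and 0.55 in the nucleus and at -0.38 and -0.36 in the cytoplasm.

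Genes downstream of Atf4 went both ways. Of 11 amino acid transporters 1 was higher at 12 h and 2 at 24 h in the nucleus, and 2 were higher at each time in the cytoplasm, with none lower. The shares of all genes called higher were 7.92%, 7.88%, 11.7% and 10.4% in the same order. Their medians were 0.59 and 0.38 in the nucleus and -0.00 and 0.06 in the cytoplasm. Slc7a11, the cystine importer, which NRF2 also induces, was higher in all 4 comparisons (1.44 to 2.73). Its partner chain Slc3a2 was at 20.6, 26.0 and 24.7 CPM in the nucleus at 0, 12 and 24 h, against 3.26, 9.50 and 9.63 CPM in the cytoplasm, and passed 2-fold only there (1.54 and 1.56). Slc7a5, a leucine importer, passed 2-fold only in the nucleus at 24 h (1.04). Whether these fractions differ was not tested across libraries. Hmox1, the heme-degrading enzyme gene given for comparison, was at 2.28 and 2.33 in the nucleus and at 1.75 in the cytoplasm at both times.

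Of the amino acid and one-carbon enzymes none of 17 was called in the nucleus, beside 14.6% and 13.6% of all genes called in either direction at 12 and 24 h. In the cytoplasm 1 of 15 was higher and 2 lower at 12 h, and 1 was lower at 24 h. The shares over all genes in that fraction came to 11.7% higher and 8.99% lower at 12 h, and 6.72% lower at 24 h. The medians were 0.06 and 0.23 in the nucleus and -0.22 and -0.35 in the cytoplasm. Those lower were Bcat1 (-1.12) and Pck2 (-1.22) at 12 h, which encode a branched-chain aminotransferase and mitochondrial PEP carboxykinase, and Shmt2, the mitochondrial serine hydroxymethyltransferase, at 24 h (-1.45). Aldh18a1, of proline synthesis, was the higher one (1.02, with at most 1.75 cytoplasmic CPM). Chac1, which degrades glutathione, was at 0.19 and 0.88 in the nucleus and at 0.11 and 0.27 in the cytoplasm. Of 20 genes for tRNA synthetases and tRNA export only Hars was called in the nucleus, higher at 12 h (1.07), beside 7.92% of all genes higher. Hars fell under 2-fold on total counts (0.85) and on TPM (0.73). In the cytoplasm Qars (-1.16 and -1.07), Vars (-1.31 and -1.41) and the tRNA exporter Xpot (-1.75 and -1.04) were lower. These were 3 of 18 at each time, beside 8.99% and 6.72% of all genes. Of the stretches of Xpot 14.0% recur in other genes. The medians of this list were -0.00 and 0.08 in the nucleus and 0.08 and -0.12 in the cytoplasm.

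Among stress, growth and death effectors the cytoplasm had 2 of 12 higher and 2 lower at 12 h, and 1 higher and 2 lower at 24 h, beside 11.7% higher and 8.99% lower, and 10.4% and 6.72%, of all genes. The medians were -0.06 and -0.03 in the nucleus and -0.42 and -0.34 in the cytoplasm. Gadd45a, a growth arrest gene, was higher at both times (1.22 and 1.33), and Ndrg1, a stress and hypoxia gene, was lower (-1.38 and -1.64). Trib2, a pseudokinase gene of the family of Trib3, was lower in the cytoplasm (-1.27 and -1.13) and in the nucleus at 12 h (-1.17). Trib1 of the same family, named after its values were seen, was higher in the cytoplasm at 12 h (1.13) and in the nucleus at 24 h (1.17). Tsc22d3, a glucocorticoid-induced gene, was lower in the nucleus at 12 h (-1.43).

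**Figure D4:**
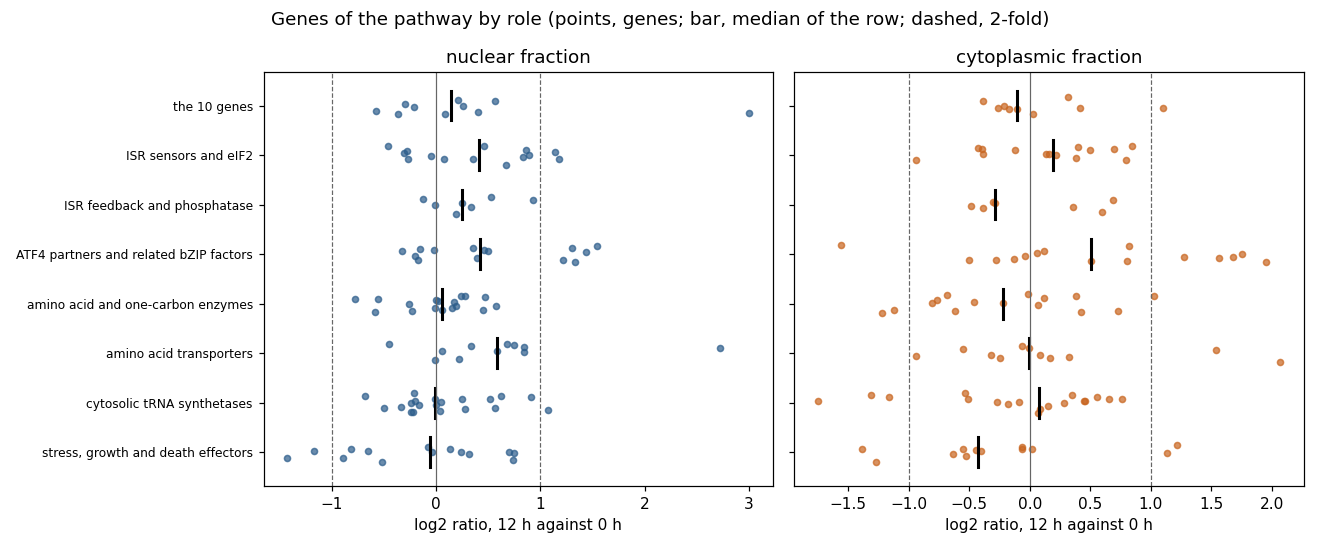
Log2 ratio at 12 h of oxyhemoglobin against 0 h (horizontal axes) in the nucleus (left) and the cytoplasm (right) for the 10 genes and for 7 lists of other genes of the pathway; each point is a gene, black bars are medians and dashed lines mark 2-fold. The list of ATF4 partners and related bZIP factors has 5 genes past the upper line in each fraction. The medians of all 7 lists, this one included, lie within 2-fold.

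Genes with profiles most like Atf4 and Ddit3 were sought over 4 log2 ratios, 12 and 24 h against 0 h in each fraction, among 6554 genes. Atf4 had close neighbours: Arfgap1, Ist1 and Dgcr8 lay at Euclidean distances of 0.077, 0.078 and 0.099 from it. Ddit3 had more distant ones: Alkbh1 at 0.316, Sirt1 at 0.346 and Fos at 0.382. Alkbh1 had ratios of -0.47 and -0.53 in the nucleus and of 1.05 and 0.66 in the cytoplasm. No search was made for Gdf15, which was not compared in the cytoplasm. The 2 ratios of a fraction share their 0 h libraries, and so the error of the 0 h value, and are not separate measures of likeness.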

How the data were processed

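RNA sequencing of BV2 nuclear and cytoplasmic fractions gave 6 groups of 3 libraries. The submitters' processing notes name HISAT2 2.2.0, featureCounts, DESeq2 and the GRCm38 build. For the annotation release and the strand setting, no value is given in the sources used here. Each deposited count is the authors' mean over 3 libraries, since 3 times each value is whole within 0.001. The authors also deposited TPM, used as an alternative with a pseudocount of 1. Of 55487 IDs, 55227 are in GENCODE release M21, which gave names and exons.

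With no values per library, no test across libraries was possible, and log2 ratios of TMM-scaled means (trims of 30% and 5%) were given with 95% counting intervals from summed reads (exact Clopper-Pearson, or a normal approximation for changes of a ratio between fractions). Genes needed the CPM of 10 counts at the median depth in at least 1 group. Calls needed 2-fold and an interval without 0. The procedure was tested on simulated counts. Versions were matplotlib 3.10.9, scipy 1.17.1, pandas 2.3.3, numpy 2.4.6 and Python 3.11.15.

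The 10 genes, the lists and the naming rule were chosen with earlier results of these data known. The naming rule covers all 10 genes, 12 fixed genes, up to 4 called genes a list by size, and the 3 genes most like Atf4 and Ddit3. Median-of-ratios and total-count scaling, TPM, no filter and a 1.5-fold threshold were tried.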

Additional observations from a re-analysis of the deposited data

Results flagged for a closer look

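Of the 10 genes, 9 were compared in both fractions. For 6 of these the ratio to 0 h pointed opposite ways in nucleus and cytoplasm at 12 h, at 24 h or at both. Both counting intervals then excluded 0. Intervals are narrower for genes with more reads, so small ratios of such genes pass this more easily. Nuclear and cytoplasmic values were scaled separately, each group is the mean of 3 libraries, and the difference between fractions was not tested across libraries. The nuclear minus cytoplasmic log2 ratio is given for each. It comes from the same reads as the changes of ratio between fractions given above and restates them under another scaling.

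At 12 h against 0 h it was -1.67 for Ddit3 and -0.78 for Asns, both with the nuclear ratio below 0 and the cytoplasmic one above it. In the opposite sense it was 0.47 for Trib3, 0.44 for Phgdh and 0.61 for Sesn2. At 24 h it was -1.16 for Ddit3, 0.88 for Trib3, 0.79 for Phgdh, 0.85 for Sesn2 and 1.22 for Ddit4. Such opposite signs were seen in the same sense as Ddit3 in 281 of 11085 genes at 12 h (2.53%) and in 343 at 24 h (3.09%). In the sense of Trib3 they were seen in 1191 (10.7%) and 1382 (12.5%). The nuclear signs of Trib3 turned on total counts, and those of Trib3, Phgdh and, at 24 h, Sesn2 turned on log2(TPM + 1). On the same scale the cytoplasmic sign turned for Asns at 12 h and for Ddit3 at 24 h.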

How the results depend on the processing

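No paired analysis was possible because the deposited columns are group means that carry no replicate, and leaving out each replicate was not run for the same reason. Depth limits Gdf15 (at most 4 cytoplasmic reads a group) and Ppp1r15a. Of 107 ratios of the 10 genes, the sign turned in 2 with median-of-ratios scaling, 10 on total counts, 22 on log2(TPM + 1) and 0 without the filter or at 1.5-fold. Their calls changed in 2, 16, 22, 0 and 16 of them in the order median-of-ratios, total counts, TPM, no filter and 1.5-fold. No called ratio of a member reversed its direction. On TPM the members called were 0 for the nucleus at 12 h (1 with TMM), 2 at 24 h (1), 3 for the cytoplasm at 24 h (0), and 3 and 4 between fractions at 12 and 24 h (8 and 9). On total counts they were 2 for the nucleus at 24 h and 5 between fractions at 12 h. At 1.5-fold they were 3 for the nucleus at 24 h, 2 for the cytoplasm at 24 h against 0 h and against 12 h (0 each), and 7 for each change of the ratio between fractions (2 and 3). The causes were not tested, beyond the shift of the median of all genes given with the results.

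Counts of all genes called moved too. At 1.5-fold they were 5605, 5476 and 1832 in the nucleus for 12 h against 0 h, 24 h against 0 h and 24 h against 12 h (2517, 2358 and 522 at 2-fold), 4638, 4079 and 1597 in the cytoplasm (2426, 2009 and 563), and 5607 and 5774 for the change of ratio between fractions at 12 and 24 h (2798 and 2771). Without the filter they were 3603 and 1089 in the nucleus for 24 h against 0 h and against 12 h, and 3987, 3630 and 1436 in the cytoplasm. On TPM they were 1655 for the nucleus at 12 h against 0 h, 290 for 24 h against 12 h, and 163 in the cytoplasm for 24 h against 12 h. The share of higher genes among those called for 24 h against 12 h was 60.7% in the nucleus (44.2% on total counts, 9.31% on TPM) and 60.6% in the cytoplasm (73.4% on total counts). At 1.5-fold it was 50.7% for the cytoplasm at 24 h against 0 h, and 74.98% and 67.8% for the change of ratio at 12 and 24 h (63.9% and 53.4% at 2-fold).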
